A study of Mus musculus with 6 samples.

Results

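Hmgcs1, Sqle, Idi1, Fdft1, Cyp51, Dhcr7, Msmo1 and Insig1 are genes of cholesterol biosynthesis. They were taken by gene name from a table of FPKM values, fragment counts scaled to gene length and to library size, for 54532 genes, in which each of the 8 names matched 1 row. The first 7 listed encode enzymes of the pathway. Insig1 encodes no enzyme but a membrane protein that restrains it, so the label of enzymes covers 7 of the 8 genes. The tissue was mouse cerebral cortex at an age of 12 months. Of the libraries, 3 carry the genotype label Fam69c KO and 3 the label WT, and no treatment is named for either. The labels do not give the strain, the sex, the allele or whether each library is a separate mouse, so p-values measure the spread between libraries, which may be technical. Reads per library, recovered from the FPKM values, ran from 30935326 to 35065884.

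Reads counted for Fam69c were present under both labels, at 1.60 ± 0.216 FPKM labelled KO and 1.89 ± 0.285 FPKM in WT (SD, n = 3 each). The limma estimate for it was -0.19 on the log2 scale (adjusted p = 0.999), so its RNA level does not check the genotype, and groups are named below as labelled. RNA of 2 libraries stood apart. Summed over 10 genes of striatal neurons, which lie below the cortex, the libraries labelled KO held 255, 469 and 408 FPKM in replicates 1, 2 and 3, and the WT libraries 510, 522 and 188 FPKM. KO replicate 1 and WT replicate 3 were thus the low ones, and results that rest on them are given with and without them. In bulk tissue, fewer cells of a type and less RNA per cell cannot be told apart.

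Cells build cholesterol from acetyl-CoA through mevalonate, isoprenoid diphosphates, squalene and lanosterol. The enzyme genes are switched on together by the transcription factor SREBP2, which is released from the endoplasmic reticulum when sterols are low and held there by INSIG proteins when sterols are plentiful. The adult brain makes its own cholesterol because lipoproteins do not cross the blood-brain barrier, mostly in astrocytes and in oligodendrocytes, whose myelin holds much of it.

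The stretches of DNA before the gene starts are shown because members of this pathway are known to share control through them. RefSeq promoter windows (build GRCm38.p6) were found for 6 members, 8 windows in all, since Dhcr7 has 3. Letters of the sterol regulatory element, TCACNCCAC on either strand, occurred in 1 of the 8 windows, that of Hmgcs1, and in 1.24% of all 32851 windows. The NF-Y box letters CCAAT occurred in 6 of the 8, at least 1 for each of the 6 members, and in 37.4% of all windows. The Sp1 box letters GGGCGG occurred in 7 of the 8 and in 35.7% of all windows. These are matches of letters and were not tested as binding sites. Below are the bases before the start for Hmgcs1, for Insig1, which varied most between libraries, and for Dhcr7, the member whose groups did not overlap. They lie at chr13:119690101-119690350 on the plus strand for Hmgcs1, at chr5:28071162-28071362 on the plus strand for Insig1 and at chr7:143822917-143823144 on the plus strand for Dhcr7. Capitals mark the sterol regulatory element letters and CCAAT, or ATTGG where CCAAT is on the other strand.
Hmgcs1: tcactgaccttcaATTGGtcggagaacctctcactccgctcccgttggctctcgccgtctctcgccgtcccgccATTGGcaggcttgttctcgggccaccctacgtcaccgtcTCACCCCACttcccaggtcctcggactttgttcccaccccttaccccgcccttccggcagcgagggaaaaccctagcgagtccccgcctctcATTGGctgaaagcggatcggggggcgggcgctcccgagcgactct
Insig1: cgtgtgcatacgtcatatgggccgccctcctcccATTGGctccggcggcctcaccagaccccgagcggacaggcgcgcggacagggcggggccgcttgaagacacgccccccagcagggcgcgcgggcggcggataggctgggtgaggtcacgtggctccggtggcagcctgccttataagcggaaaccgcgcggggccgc
Dhcr7: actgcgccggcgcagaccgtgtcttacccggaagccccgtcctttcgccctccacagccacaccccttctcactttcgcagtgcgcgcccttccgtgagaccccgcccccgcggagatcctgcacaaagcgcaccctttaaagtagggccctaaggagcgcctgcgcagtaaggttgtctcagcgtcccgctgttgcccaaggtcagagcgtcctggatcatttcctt
The Hmgcs1 stretch of 250 bases holds the element and 3 CCAAT boxes, the Insig1 stretch of 201 bases 1 CCAAT box, and the Dhcr7 stretch of 228 bases, from the first of its 3 windows, neither set of letters, while window 3 holds 2 CCAAT boxes.

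All 8 genes were expressed and passed the filter of a mean of at least 0.5 FPKM, as did 15694 genes in all. Averaged over the 6 libraries, Hmgcs1 was highest at 40.4 FPKM, above 92.4% of the genes tested. Insig1 followed at 23.9, Fdft1 at 21.2, Cyp51 at 13.8, Msmo1 at 10.7, Sqle at 10.7, Dhcr7 at 5.32 and Idi1 at 4.86 FPKM, the last above 49.3% of the genes tested. FPKM here are per deposited gene length, which for all 8 equals the exon bases of the gene in the annotation GENCODE M21. For Msmo1 that was 6144 bases against 2044 in its longest coding transcript, and for Insig1 3093 against 2697. The order here is of these FPKM values, and an order per transcript molecule was not computed. Between neighbours in this order the ranges over libraries did not overlap for Hmgcs1 over Insig1, Fdft1 over Cyp51 and Sqle over Dhcr7. Msmo1 and Sqle did not differ beyond their spread, with Msmo1 higher in 4 of 6 libraries. The remaining neighbours kept their order in 6 of 6 libraries although their ranges overlapped. Idi1 rested on the fewest reads, 492 to 627 per library, and Hmgcs1 on the most, 5445 to 7195.

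**Figure D1:**
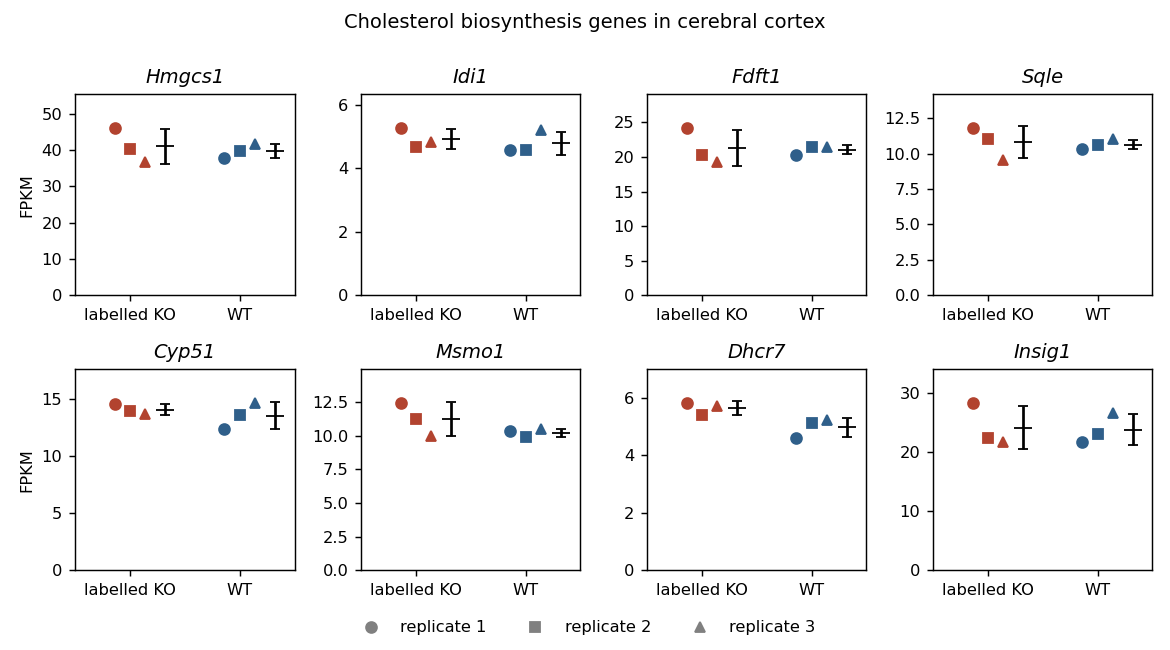
FPKM of the 8 genes in each library, with libraries labelled KO left of WT, marker shape giving the replicate number, and black bars the mean and SD of 3 libraries. Only Dhcr7 has 3 points labelled KO above all 3 WT points, and replicate 1 labelled KO is the highest of its group for every gene.

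None of the 8 genes passed the test of KO against WT. By limma, 0 of all 15694 genes (0%) were past the threshold, an adjusted p under 0.05, and 599 (3.82%) reached an unadjusted p under 0.05. Among the 8 genes 0 passed, and 1, Dhcr7, had an unadjusted p under 0.05. Each adjusted p below is from limma over all genes tested, and each fold change is on the scale of log2(FPKM + 0.5), labelled KO minus WT. The median 95% interval of the 8 genes reached 0.19 log2 units to either side of the estimate.

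The early steps make isoprenoid units. Hmgcs1 (mm10, chr13:119690379-119708260, plus strand) encodes the synthase that makes HMG-CoA. It read 46.2, 40.2 and 36.8 FPKM in the libraries labelled KO and 37.9, 39.8 and 41.6 FPKM in the WT libraries. The groups overlapped fully, with the highest and the lowest value of all 6 both labelled KO. The estimate for Hmgcs1 was 0.04 ± 0.09 (SE), with an interval from -0.17 to 0.25 (adjusted p = 0.999). Idi1 (chr13:8885501-8892451, plus strand), whose product interconverts the isoprenoid units isopentenyl and dimethylallyl diphosphate, read 5.28, 4.68 and 4.83 FPKM labelled KO and 4.58, 4.57 and 5.20 FPKM in WT. Only KO replicate 1 and WT replicate 3 exceeded 5 FPKM, so the high values were divided evenly between the labels. For Idi1 the log2 fold change was 0.04 with an interval from -0.14 to 0.22 (adjusted p = 0.999).

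Squalene is made and oxidized next. Fdft1 (chr14:63145150-63179578, minus strand) encodes squalene synthase, which commits isoprenoids to sterols, and read 24.2, 20.3 and 19.3 FPKM labelled KO and 20.3, 21.4 and 21.4 FPKM in WT. A single library labelled KO lay above the WT range, and the other two lay below its lower end. Its log2 fold change was 0.01 with an interval from -0.19 to 0.21 (adjusted p = 0.999). Sqle (chr15:59315077-59331192, plus strand), encoding the squalene epoxidase that is a slow step of the pathway, read 11.8, 11.0 and 9.56 FPKM labelled KO and 10.3, 10.6 and 11.0 FPKM in WT. Here too the libraries labelled KO spanned the WT range on both sides, with a log2 fold change of 0.02 and an interval from -0.17 to 0.21 (adjusted p = 0.999).

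The later enzymes turn lanosterol into cholesterol. Cyp51 (chr5:4081145-4104746, minus strand), encoding the cytochrome P450 that takes a methyl group off lanosterol, read 14.6, 13.9 and 13.7 FPKM labelled KO and 12.4, 13.6 and 14.7 FPKM in WT. It was the 1 member with its highest value in a WT library, replicate 3, and its SD was 0.470 FPKM labelled KO and 1.15 FPKM in WT (n = 3 each). The log2 fold change of Cyp51 was 0.06 with an interval from -0.11 to 0.22 (adjusted p = 0.999). Msmo1 (chr8:64718139-64733792, minus strand) encodes the oxygenase that starts removal of a further pair of methyl groups, and read 12.5, 11.3 and 10.002 FPKM labelled KO and 10.3, 9.91 and 10.5 FPKM in WT. In it 2 libraries labelled KO stood above all WT libraries and replicate 3 within their range, with a log2 fold change of 0.12 and an interval from -0.07 to 0.32 (adjusted p = 0.999).

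Dhcr7 (chr7:143823145-143848410, plus strand) encodes the reductase of the last step of a branch of the pathway, lost in Smith-Lemli-Opitz syndrome. It read 5.84, 5.39 and 5.72 FPKM labelled KO and 4.61, 5.13 and 5.21 FPKM in WT, the 1 member of the 8 whose groups did not overlap, where 4.17% of all genes tested had every library labelled KO above every WT library. The means were 5.65 ± 0.230 FPKM labelled KO and 4.98 ± 0.329 FPKM in WT (SD, n = 3 each). The estimate for Dhcr7 was 0.17 ± 0.07 (SE), with an interval from 0.01 to 0.33 and an unadjusted p of 0.0437, and did not pass (limma adjusted p = 0.999). Among all genes tested 1.63% were higher at an unadjusted p under 0.05. Leaving out 1 library moved that unadjusted limma p to 0.116 without KO replicate 1, 0.148 without WT replicate 1, 0.0632 without WT replicate 2 and 0.09998 without KO replicate 3, and it was 0.0472 without KO replicate 2 and 0.0361 without WT replicate 3. Over 17 other settings the Dhcr7 estimate stayed between 0.12 and 0.20, with a smallest adjusted p of 0.429.

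Insig1 (chr5:28071363-28078662, plus strand) encodes the endoplasmic reticulum protein that holds the SREBP escort SCAP in place when sterols are plentiful. Its own gene is an SREBP target. Insig1 read 28.3, 22.4 and 21.6 FPKM labelled KO and 21.6, 23.1 and 26.6 FPKM in WT. Each group held 1 high library, KO replicate 1 and WT replicate 3, and the others lay close together. Insig1 had the widest spread of the 8, with an SD over the 6 libraries of 0.16 log2 units against 0.08 for Idi1, the narrowest. Its log2 fold change was 0.01 with an interval from -0.27 to 0.30 (adjusted p = 0.999).

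**Figure D2:**
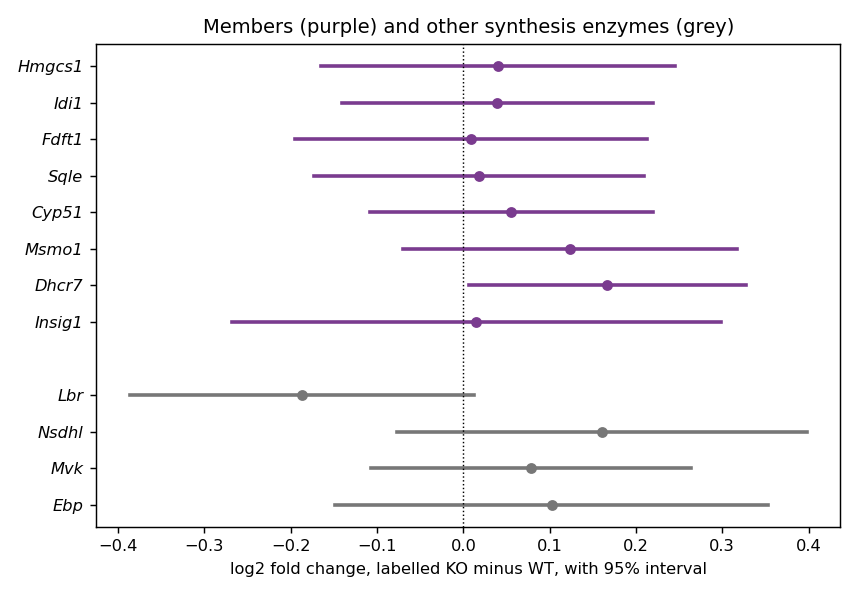
Log2 fold change, labelled KO minus WT, of the 8 genes (purple) and of Lbr, Nsdhl, Mvk and Ebp, the other synthesis enzymes with the smallest p (grey), with bars for the 95% interval of the limma fit. The interval of Dhcr7, which starts at 0.01, is the only one that does not cross 0.

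Estimates of all 8 genes were above 0, where 48.0% of the genes tested had an estimate above 0, with a median of 0.04 against -0.0042 over all genes tested. That count depended on single libraries. Without KO replicate 1 it was 3 of 8 with a median of -0.03, without WT replicate 1 it was 4 of 8 with a median of 0.00, and without KO replicate 1 and WT replicate 3 together it was 4 of 8 with a median of 0.02. Dhcr7 and Msmo1 had estimates above 0 in each of these fits. Insig1 was at -0.10 and Fdft1 at -0.09 without KO replicate 1.

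**Figure D3:**
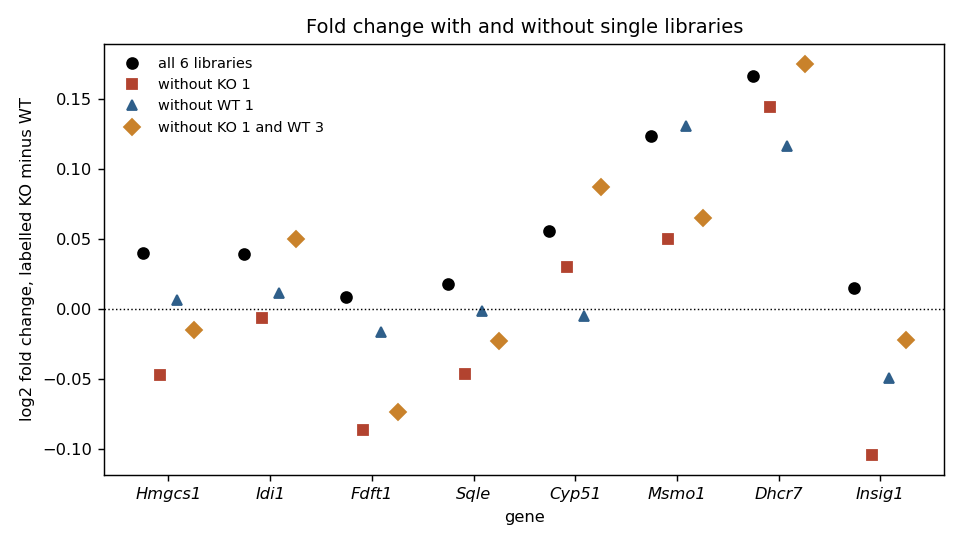
Log2 fold change, labelled KO minus WT, of each gene with all 6 libraries and with 1 or 2 libraries left out. Dhcr7 and Msmo1 stay above 0 in all 4 fits, while Hmgcs1, Idi1, Fdft1, Sqle and Insig1 are below 0 when KO replicate 1 is left out.

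Across libraries, the 8 genes were high together in a library labelled KO. In KO replicate 1 all 8 lay above their own mean over the 6 libraries, by 0.16 log2 units on average and by 0.08 to 0.25 for single genes. That library held the highest value for 7 of the 8, where 17.8% of the genes tested had their highest value in it. Of all genes tested, 50.9% lay above their own mean in KO replicate 1, and between 48.3% and 51.8% in each library. WT replicate 1 was the opposite, with 0 of 8 above their own mean and an average of -0.10. WT replicate 3 had 6 of 8 above, at 0.05, and KO replicate 3 had 1 of 8, at -0.07. KO replicate 2, at -0.01, and WT replicate 2, at -0.04, lay between. This library pattern was noted after the values were seen, and was not tested.

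Summed over the 8 genes, the libraries labelled KO held 149, 129 and 122 FPKM and the WT libraries 122, 128 and 136 FPKM. The lowest sums of the groups were thus about equal, and the ranges differed most at the top. KO replicate 1 exceeded the next highest library, WT replicate 3, by 0.11 log2 units in the mean of the 8 genes. With each library rescaled to the same sum of FPKM (TPM) the gap was 0.04, and KO replicate 1 was highest for 5 of 8 members, where it was highest for 11.7% of the genes tested. The SD of the 8 genes over the 6 libraries had a median of 0.11 log2 units, against 0.09 over 7686 genes with means of 4 to 45 FPKM. In 5 of the 8 the SD was larger labelled KO than in WT, as it was in 49.7% of the genes tested.

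**Figure D4:**
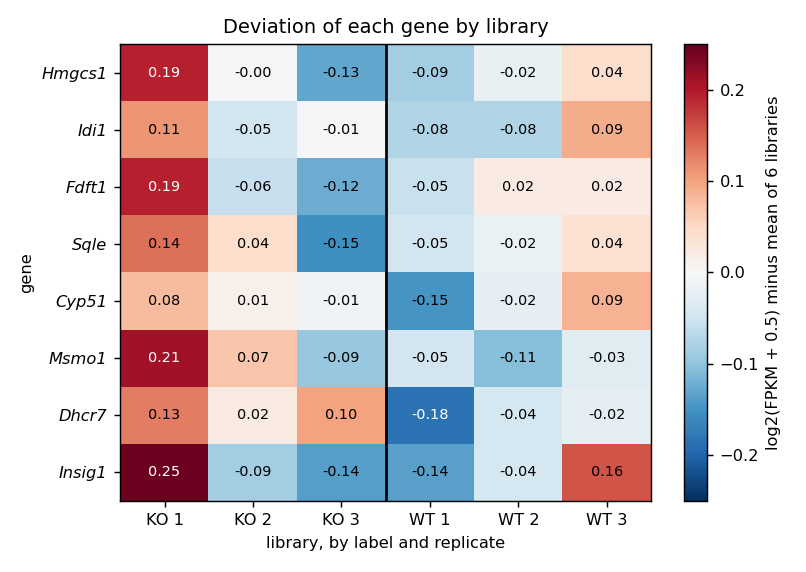
Deviation of each gene from its mean over the 6 libraries, in log2(FPKM + 0.5), with libraries labelled KO left of the line and WT libraries right of it. The KO 1 column is above 0 for all 8 genes and the WT 1 column below 0 for all 8.

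The remaining enzymes of the pathway were read from a list of 14, of which 13 passed the filter. With limma 0 of the 13 passed, and 0 had an unadjusted p under 0.05. The estimates were above 0 for 9 and below for 4, with a median of 0.03. Nsdhl, a dehydrogenase of the same demethylation steps as Msmo1, read 7.27 ± 1.04 FPKM labelled KO and 6.42 ± 0.329 FPKM in WT (SD, n = 3 each). Its highest library was KO replicate 1, at 8.45 FPKM, with 6.92 and 6.46 FPKM in the other libraries labelled KO. Lbr, an inner nuclear membrane protein that doubles as a sterol reductase, was the 1 gene of this list whose groups did not overlap, lower labelled KO at 2.54 ± 0.0655 against 2.97 ± 0.306 FPKM in WT, where 4.70% of all genes tested were separated in that direction. The WT libraries read 2.88, 2.71 and 3.31 FPKM for Lbr, with replicate 3 the highest. Its log2 fold change was -0.19 with an interval from -0.39 to 0.01 (limma adjusted p = 0.999). Mvk, mevalonate kinase, had a log2 fold change of 0.08, and Ebp, a sterol isomerase, 0.10.

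These 13 enzymes shared the high library. KO replicate 1 held the highest value for 8 of the 13, and 11 of 13 lay above their own mean in it, by 0.10 log2 units on average over the list. Of all genes tested, 17.8% were highest in that library and 50.9% lay above their own mean in it. The average of the 13 enzymes in WT replicate 1 was -0.01, nearer to their mean than that of the 8 genes there. Without KO replicate 1 the median log2 fold change of the list was -0.02, and without WT replicate 3 as well it was -0.0045.

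The genes that control the pathway gave no call. Of 11 genes of SREBP control, all tested, 0 passed with limma, and 3 had estimates above 0 and 8 below, with a median of -0.03. Scap, the sterol sensor that escorts SREBP to the Golgi, read 13.0 ± 0.422 FPKM labelled KO and 14.1 ± 0.299 FPKM in WT (SD, n = 3 each) without overlap of the groups. Of all genes tested, 4.70% were separated in that direction. Scap was lowest in KO replicate 1, at 12.6 FPKM, and highest in WT replicate 3, at 14.4 FPKM. Its log2 fold change was -0.11 with an interval from -0.23 to -0.0013 and an unadjusted limma p of 0.0480 (adjusted p = 0.999), where 2.19% of all genes tested were lower at an unadjusted p under 0.05. Srebf1, which encodes the SREBP form that favours fatty acid genes, had an estimate of -0.16 and Mbtps2, a protease that frees SREBP, 0.14. In KO replicate 1 this list averaged 0.00 log2 units from its mean, with genes from -0.17 to 0.15 and 7 of 11 above their own mean. That library held the highest value for 3 of the 11, among them both SREBP genes, Srebf1 and Srebf2. Over all genes tested, 17.8% were highest there.

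Uptake, transport and removal of sterols gave no call either. Of 11 uptake and transport genes 0 passed with limma, with 5 estimates above 0, 6 below and a median of -0.0007. Among them Scarb1, a lipoprotein receptor, had a log2 fold change of 0.11, Npc2 and Npc1, which move cholesterol out of lysosomes, -0.06 and 0.05, and Lrp8, a receptor for apolipoprotein E, 0.06. Of 12 turnover and efflux genes 11 were tested and 0 passed, with 5 estimates above 0, 6 below and a median of -0.02. Abca1, the exporter that loads cholesterol onto apolipoproteins, read 2.999 ± 0.376 FPKM labelled KO and 3.47 ± 0.0757 FPKM in WT (SD, n = 3 each), an estimate of -0.19 in log2 (limma adjusted p = 0.999). Its groups did not overlap, and 4.70% of all genes tested were separated in that direction. Apoe, the main apolipoprotein of brain, had an estimate of -0.18, Nr1h3, a nuclear receptor for oxysterols, 0.12 and the exporter Abcg4 0.06.

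Fatty acid synthesis genes, also SREBP targets, were high in the same library. All 10 lay above their own mean in KO replicate 1, by 0.12 log2 units on average, and 9 of the 10 were highest there. Of all genes tested, 50.9% lay above their own mean in that library and 17.8% were highest there. In WT replicate 3 the 2 lists parted: fatty acid genes averaged -0.06 there and the 8 cholesterol genes 0.05. Between the groups 0 of 10 passed with limma, with 6 estimates above 0, 4 below and a median of 0.02. That median was -0.04 without KO replicate 1, -0.0055 without WT replicate 3, -0.05 without both and -0.02 with sample weights. Elovl6, an elongase, read 8.63 ± 0.432 FPKM labelled KO and 7.86 ± 0.214 FPKM in WT, and Acss2, which makes acetyl-CoA from acetate, 5.03 ± 0.190 FPKM labelled KO and 4.64 ± 0.162 FPKM in WT (SD, n = 3 each), both at a limma adjusted p of 0.999. These 2 of 10 had every library labelled KO above every WT library, as had 4.17% of all genes tested. Scd2, a desaturase, had an estimate of 0.06 and Fasn, fatty acid synthase, of -0.02. In the other branches from mevalonate 0 of 10 tested genes passed, with 2 estimates above 0, 8 below and a median of -0.05. They included Dolk at -0.15 and Nus1 at -0.09, both of dolichol synthesis, Pdss2 of coenzyme Q synthesis at -0.08 and the prenyltransferase subunit gene Fnta at -0.05.

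Markers of the cells that make most of the brain's cholesterol moved with KO replicate 1 in part. All 10 oligodendrocyte markers lay above their own mean there, by 0.26 log2 units on average, where 50.9% of the genes tested lay above theirs. Summed over the 10, the libraries labelled KO held 854, 674 and 700 FPKM and the WT libraries 767, 844 and 644 FPKM. WT replicate 3, the next highest library for the 8 genes, was the lowest in oligodendrocyte markers at -0.25, and WT replicate 2, high in them at 0.16, was below average in the 8 genes. Astrocyte markers averaged 0.06 in KO replicate 1 and summed to 692, 633 and 614 FPKM labelled KO and 701, 665 and 649 FPKM in WT. Striatum markers averaged -0.55 in KO replicate 1 and -0.99 in WT replicate 3, the libraries with the highest means of the 8 genes, and between 0.18 and 0.51 in the others. Excitatory neuron markers, which fit the labelled cortex, were abundant in every library, at sums of 1806 to 1913 FPKM labelled KO and 1816 to 2037.5 FPKM in WT. In KO replicate 1 inhibitory neuron markers averaged 0.07, microglia markers 0.03 and endothelial markers 0.03 from their means. Every marker of these 7 lists was detected in all 6 libraries and 0 passed between the groups with limma, with 3 of 10 astrocyte, 1 of 8 excitatory and 0 of the other markers at an unadjusted p under 0.05, against 3.82% of all genes tested. The 3 astrocyte markers went both ways, 1 higher and 2 lower labelled KO. The part of cell mix or dissection in the level of the 8 genes was not tested.

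**Figure D5:**
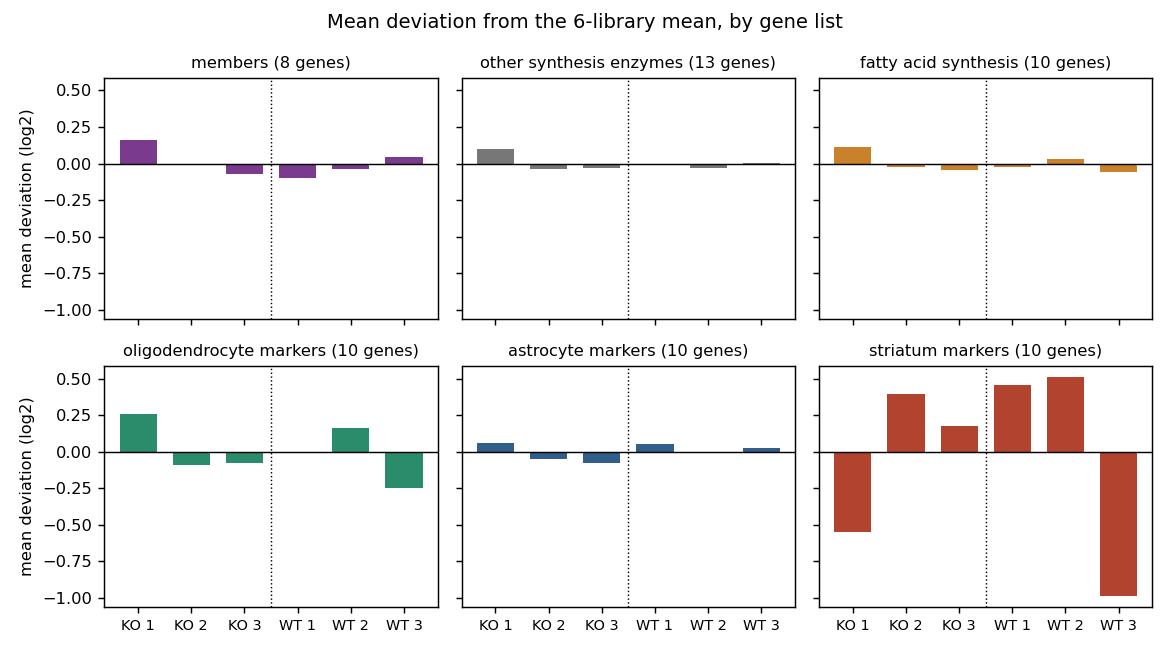
Mean deviation from the 6-library mean in log2(FPKM + 0.5), for 6 gene lists, with libraries labelled KO left of the line and WT libraries right of it. The 8 genes, the other synthesis enzymes, the fatty acid genes and the oligodendrocyte markers all have their highest bar in KO 1. So do the astrocyte markers, at 0.058 against 0.051 in WT 1, and striatum markers are below 0 in KO 1 and WT 3.

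The genes outside these pathways with the pattern most like the mean of the 8 genes over the 6 libraries were sought among 9183 genes that varied at least as much. Likeness was the root-mean-square difference of the deviations in log2 units. The closest were 2810001G20Rik at 0.029, Trpt1, a gene of tRNA splicing, at 0.032, Prrg1 at 0.038, Aldh6a1, a mitochondrial enzyme of valine breakdown, at 0.039 and Ckap4, an endoplasmic reticulum membrane protein, at 0.041. Prrg1 averaged 0.537 FPKM, near the filter of 0.5, where the added 0.5 shrinks its deviations, and the others averaged 7.04 to 9.97 FPKM. The 8 genes themselves lay between 0.030 for Hmgcs1 and 0.085 for Dhcr7, the least alike, with Insig1 at 0.072. Each of the 8 is part of the mean it was set against, so these distances do not compare directly with those of the outside genes.

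Reads of some members may not be separable from those of other genes, since no source used here states that counting used strand. In the mm10 annotation GENCODE M21, which gives the same position as the deposited table for all 8, Fdft1 shares 774 of its 4227 exon bases with Ctsb, a cathepsin gene on the other strand that read 92.5 to 106 FPKM. Hmgcs1 shares 557 bases with the antisense gene Gm48342, Idi1 323 with Gm48574 and Cyp51 166 with Akap9. Sqle, Dhcr7, Msmo1 and Insig1 share none. Fam69c starts there at chr18:84719236, against a deposited start of 84720019, with the same end. It has 5466 exon bases there against a deposited length of 2662, and shares 1338 of the 5466 with D030046N08Rik on the other strand. How many of these lie within the deposited length was not computed. D030046N08Rik read 0.353 to 0.958 FPKM. Processed copies that align over at least 500 bases at 90% identity or more exist for Idi1 and Fdft1. Gm13502 matches Idi1 over 684 bases at 100% and read 0.269 FPKM, and Gm6781 matches Fdft1 over 1249 bases at 97.4% and read 0.0955 FPKM, both as means of 6 libraries.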

How the data were processed

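Cortex RNA was sequenced in 6 libraries, and the authors deposited 1 table of FPKM values. Bowtie and the mm10 build are named in the submitters' processing notes, without a version, and the sources used here do not name the counting program, its use of strand or the annotation release. Multiplied by the deposited gene length in bases, 100% of values above 0 were whole multiples of 1 step per library within 0.001, which gave the reads. The ratio of these reads to the library size implied by the step ran from 0.979 in KO replicate 3 to 1.01 in WT replicate 1. The size used for scaling was thus not exactly the sum of the recovered reads. Values were tested as log2(FPKM + 0.5) with limma 3.58.1 in R 4.3.3, with a variance trend and no block, two-sided, with Benjamini-Hochberg adjustment over the 15694 genes that averaged 0.5 FPKM or more, at a threshold of 0.05. The fit was tested on simulated data. The 8 members, the 14 gene lists and the motifs were chosen with earlier results of these data known, so they are described without a test of the list. From each list up to 4 genes with the smallest p are named, plus 5 genes most like the members. Srebf2, Fdps, Gm47283, Ctsb, the other overlapping genes and the gene copies were added for their values. Some listed genes are not reported here by name. No libraries agreed within sampling noise, the closest pair having a median chi-square 3.04 times that of noise. Alternatives covered pseudocounts, filters, scalings, the variance model, sample weights, a replicate block, voom on the recovered reads and leaving out libraries. Copies were searched with BLAST 2.17.0, and plots drawn with matplotlib 3.10.9.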

Additional observations from a re-analysis of the deposited data

How the results depend on the processing

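None of the 8 members passed the threshold under any of the 17 refits or at an adjusted p of 0.1, and the genes past it were 0 in each, except 1 without WT replicate 3 and KO replicate 1 together, Gm47283 (limma log2 fold change 1.61, adjusted p = 0.0338). Genes at an unadjusted p under 0.05 numbered 599, against 1214 with no filter, 1420 with sample weights, 516 with voom on the recovered reads, 2092 without that pair and 426 to 1023 leaving out 1 library each. The median log2 fold change of members ran from -0.0263 to 0.0964 leaving out 1 library each. Leaving out 1 library each, log2 fold changes ran from -0.0471 to 0.1151 for Hmgcs1, -0.0461 to 0.1 for Sqle, -0.0064 to 0.0956 for Idi1, -0.0861 to 0.0733 for Fdft1, -0.0045 to 0.1134 for Cyp51 and -0.1042 to 0.0972 for Insig1, each lowest without KO replicate 1 except Cyp51, lowest without WT replicate 1, while Dhcr7 and Msmo1 stayed above 0. Fdft1 was at -0.0113 with sample weights. Without WT replicate 3 and KO replicate 1 together, estimates were -0.0148 for Hmgcs1, -0.0229 for Sqle, -0.0735 for Fdft1 and -0.0219 for Insig1. The cause was not tested. Same-numbered libraries had correlations of deviations of 0.08, 0.01 and 0.21, and differently numbered ones ran from -0.16 to 0.11. The highest, 0.21, was between the replicates numbered 3, while KO replicate 1 correlated best with WT replicate 2, at 0.11. Whether the numbers pair the libraries cannot be told from these values. With a replicate block 0 genes passed, 837 had an unadjusted p under 0.05, and Dhcr7 had an unadjusted limma p of 0.0665. The members had at least 492 reads per library, and the share of counting error in their spread was not tested.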

Other observations

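Fdps, the farnesyl diphosphate synthase gene that links Idi1 to Fdft1, was the 1 gene below the filter in the list of 14 other synthesis enzymes. It read 0.329, 0.271 and 0.206 FPKM labelled KO and 0.205, 0.310 and 0.466 FPKM in WT, from 27 to 65 reads. Its level was far below that of every other gene of that list and of the 8 members. In GENCODE M21 6 other genes align to its transcript over at least 500 bases at 90% identity or more. The processed pseudogene Gm3571 on chromosome 10 (mm10, 93778660 to 93779719) matches over 1062 bases at 98.9% and read 4.08 ± 0.558 FPKM labelled KO and 3.60 ± 0.227 FPKM in WT (SD, n = 3 each). Gm5873 on chromosome 6 matches over 1066 bases at 96.7% and read 0.690 ± 0.428 FPKM labelled KO and 0.689 ± 0.132 FPKM in WT. Gm43738, which shares 1124 exon bases with Fdps on the same strand, is listed at 0 in all 6 libraries. How reads with several matches were counted is not given in the sources used here, so the level of Fdps in this table is uncertain and its part in the pathway was not analysed here.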
